A study of Rattus norvegicus with 12 samples.

Results

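Actb (ENSRNOG00000034254), Gapdh (ENSRNOG00000018630) and B2m (ENSRNOG00000017123) were examined in neonatal rat ventricular myocytes (NRVM), primary heart muscle cells, as 3 commonly used reference genes among the 15920 genes of the deposited table. They were picked by identifier and not by any measured value, but with earlier results of these data known. The study asked how THZ1, a covalent inhibitor of the transcriptional kinases CDK7, CDK12 and CDK13, alters gene expression in cardiomyocytes under hypertrophic stress. Cells came from the heart ventricles of Sprague Dawley pups of post natal day 2 to 3 and were pre-plated and exposed to BrdU against non-myocytes, in all groups alike. There were 4 groups of 3 RNA-seq libraries: baseline (vehicle), PE (phenylephrine, an α1-adrenergic agonist, at 100 µM), THZ1 alone (10 nM), and PE + THZ1 at the same doses. By the study's methods, vehicle or inhibitor was given 3 h before PE. Treatment lasted 48 h by the labels, although the 6 columns with PE, alone or with THZ1, are named for 24 h. The labels do not say that the libraries of a group came from separate cell preparations, so the p-values measure the spread between these libraries, which may be technical.

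A reference gene is a transcript assumed to hold steady, against which other transcripts are expressed in qPCR. Actb encodes cytoplasmic β-actin, a component of the microfilaments that are rebuilt when cells grow or change shape. Gapdh encodes the glycolytic enzyme glyceraldehyde-3-phosphate dehydrogenase, and B2m encodes β2-microglobulin, the light chain of MHC class I molecules on the cell surface. The study's methods name Ppib as the reference for mouse qPCR and B2M for human stem cell-derived cardiomyocytes, and do not name the reference genes of the rat qPCR. The values here ask whether each gene was steady under PE and THZ1.

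The values are read counts divided by a DESeq2 size factor per library ("normalized counts"). The libraries held 30.5 to 45.9 M reads on genes, with size factors between 0.857 and 1.331. The scaled libraries did not sum to the same number: the mean sum per library was 40.4 ± 0.13 M (SD, n = 3) for PE, 38.0 ± 1.92 M for baseline, 34.2 ± 0.47 M for THZ1 alone and 33.8 ± 0.59 M for PE + THZ1. Each gene was therefore also described with every library set to the same total, the median of the 12. Baseline replicate 2 stood apart from its group (mean distance to the other libraries of the group 38.6, against 33.6 and 34.4 for the other 2 and 26.7 to 30.5 in the other groups, in log2 units over all genes tested), and results that rest on it are also given without it. The table carries no gene symbols, so markers of myocytes and other cell types were not looked up and the labelled cell type was not checked. In such bulk samples, fewer cells of a type and less RNA per cell cannot be told apart.

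All 3 genes were read deeply. Between 39128 and 62732 reads per library fell on Actb, 12410 to 21197 on Gapdh and 37592 to 75977 on B2m, so counting error alone would give a coefficient of variation of at most 0.898%. The observed coefficient of variation over the 12 libraries was 8.58% for Actb, 17.2% for Gapdh and 19.0% for B2m with the deposited scaling. With equal totals it was 14.5%, 15.6% and 14.9%, so Actb had the lowest value under both scalings, but with equal totals the 3 genes lay close together. All 3 passed the filter on low values. Gapdh and Actb have processed copies in the genome: the RefSeq rat table lists 91 entries named after Gapdh, 81 of them pseudogenes, 11 named after Actb, 10 of them pseudogenes, and 0 named after B2m. Reads of 40 bases can match such copies, so the counts of Gapdh and Actb are uncertain to an extent that was not measured.

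**Figure D1:**
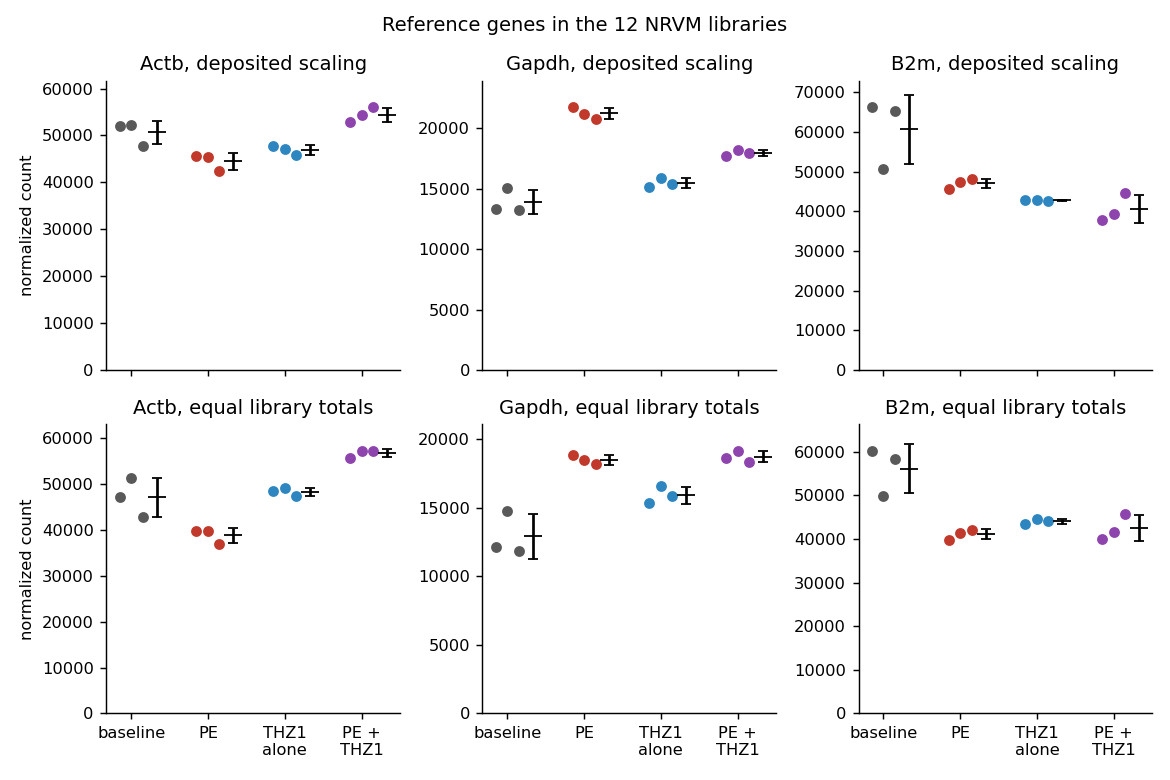
Normalized counts (y axis, from 0) of Actb, Gapdh and B2m in the 12 libraries, by group (x axis), with the deposited scaling (top) and with equal library totals (bottom). Points are libraries 1 to 3 from left to right, and the bar beside them is the mean ± SD (n = 3). Gapdh lies lowest at baseline in both rows, and B2m of baseline replicate 2 (50556 with the deposited scaling) lies far below the other 2 baseline libraries.

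Actb was lower with PE than at baseline and higher with PE + THZ1 than with PE. Its normalized count was 51908, 52196 and 47847 in baseline libraries 1 to 3 and 45657, 45461 and 42328 with PE. It was 47838, 47135 and 45805 with THZ1 alone and 52883, 54303 and 55995 with PE + THZ1. Every PE library lay below every baseline library, and every PE + THZ1 library lay above all other libraries, while the highest library of THZ1 alone lay just under the lowest baseline library. With equal totals the values were 47218, 51411 and 42830 at baseline, 39719, 39759 and 37040 with PE, 48580, 49144 and 47444 with THZ1 alone, and 55744, 57299 and 57311 with PE + THZ1. PE remained lowest and PE + THZ1 highest without overlap, whereas THZ1 alone then lay within the range of the baseline libraries. With PE, Actb fell by 12.2%, a log2 change of -0.19 ± 0.05 (SE, adjusted p = 0.0034, limma), or -0.28 with equal totals. In this comparison all 3 genes passed the test, as did 55.2% of the 14312 genes tested with the deposited scaling and 52.4% with equal totals. With PE + THZ1, Actb was 1.22-fold over PE (log2 0.29 ± 0.05, adjusted p = 5.2e-05, limma) and 1.46-fold with equal totals. Again 3 of 3 genes passed with the deposited scaling, where 61.7% of all genes did, but with equal totals only Actb passed, where 69.6% did.

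THZ1 alone left Actb without a call and without a fixed direction. Its log2 change from baseline was -0.11 ± 0.05 (adjusted p = 0.068, limma; interval of the fold 0.864 to 0.995) with the deposited scaling and 0.04 ± 0.06 (adjusted p = 0.57; 0.944 to 1.12) with equal totals. Leaving out baseline replicate 3 brought the deposited value to -0.15 (adjusted p = 0.02), and leaving out baseline replicate 2 with equal totals brought the other to 0.11 (adjusted p = 0.049), so calls of both signs were obtained. The other 2 genes passed in this comparison under both scalings, as did 51.9% of all genes with the deposited scaling and 57% with equal totals. Between PE + THZ1 and baseline, Actb differed by a log2 of 0.10 ± 0.05 (adjusted p = 0.08) with the deposited scaling and, past the threshold, by 0.27 ± 0.06 (adjusted p = 0.00083) with equal totals. Without baseline replicate 2 the deposited value was 0.13 (adjusted p = 0.025). In that comparison 2 of 3 genes passed with the deposited scaling, against 54.1% of all genes, and 3 of 3 with equal totals, against 59.3%. Against THZ1 alone, Actb rose with PE + THZ1 by a log2 of 0.21 ± 0.05 (adjusted p = 0.0036) or 0.23 with equal totals. There 2 of 3 genes passed under either scaling, Actb and Gapdh, against 24.3% and 20.3% of all genes.

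PE thus moved Actb in opposite directions without and with THZ1. The difference between the PE change with THZ1 and the PE change without it, the interaction, was a log2 of 0.40 ± 0.07 (adjusted p = 0.00028, limma), and 0.51 with equal totals. The interaction passed for 2 of the 3 genes with the deposited scaling and for 32.2% of all genes. With equal totals it passed for all 3 genes and for 28% of all genes.

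Gapdh was lowest at baseline and highest with PE. It stood at 13347, 15018 and 13225 in baseline libraries 1 to 3 and at 21711, 21125 and 20773 with PE. With THZ1 alone it stood at 15099, 15902 and 15337, and with PE + THZ1 at 17706, 18172 and 17949. No group overlapped another, although the highest baseline library, replicate 2, came close to the lowest library of THZ1 alone. With PE, Gapdh rose 1.53-fold (log2 0.62 ± 0.05, adjusted p = 7.9e-09, limma), and 1.44-fold with equal totals. This was the only change of the 3 genes in that comparison whose sign was positive under both scalings. Without baseline replicate 2 the rise was 1.60-fold.

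PE raised Gapdh less in the presence of THZ1 than in its absence, by the test of the interaction. With THZ1 alone Gapdh rose 1.12-fold over baseline (log2 0.16 ± 0.05, adjusted p = 0.0094), and 1.24-fold with equal totals. With PE + THZ1 it was 1.30-fold over baseline (adjusted p = 3.8e-06) and 1.46-fold with equal totals. Over THZ1 alone, PE + THZ1 raised Gapdh 1.16-fold (log2 0.22 ± 0.05, adjusted p = 0.0026), and 1.18-fold with equal totals. The interaction was a log2 of -0.40 ± 0.07 (adjusted p = 0.00022), and -0.29 ± 0.09 (adjusted p = 0.027) with equal totals. The step from PE to PE + THZ1 depended on the scaling, since Gapdh fell by 15.4% with the deposited scaling (log2 -0.24 ± 0.05, adjusted p = 0.00026) but stood at a log2 change of 0.02 ± 0.07 (adjusted p = 0.82) with equal totals. In the latter, Gapdh measured 18887, 18476 and 18177 with PE and 18664, 19175 and 18370 with PE + THZ1, and these libraries overlapped. The values at baseline (12141, 14792 and 11838) lay below those of THZ1 alone (15333, 16580 and 15885), and both groups lay below the other 2 without overlap.

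B2m was highest at baseline and lower in each treated group, with a wide spread at baseline. It stood at 66228, 50556 and 65203 in baseline libraries 1 to 3, a mean of 60662 ± 8767. It was 45739, 47282 and 48120 with PE, 42841, 42756 and 42617 with THZ1 alone, and 37938, 39409 and 44674 with PE + THZ1. All 9 treated libraries lay below all 3 baseline libraries, including replicate 2, and the libraries with THZ1 alone lay closest together. With equal totals B2m stood at 60244, 49795 and 58367 at baseline, 39790, 41351 and 42108 with PE, 43505, 44579 and 44142 with THZ1 alone, and 39991, 41584 and 45724 with PE + THZ1. Baseline again lay above all other libraries. PE + THZ1 overlapped THZ1 alone under both scalings, and with equal totals it also overlapped PE. With PE, B2m fell by 21.9% (log2 -0.36 ± 0.08, adjusted p = 0.0012, limma), and fell by 26.6% with equal totals. With THZ1 alone it fell by 29.0% (log2 -0.49 ± 0.08, adjusted p = 6.6e-05), and fell by 21.2% with equal totals. With PE + THZ1 it fell by 32.6% from baseline (log2 -0.57 ± 0.08, adjusted p = 1.4e-05), and fell by 24.3% with equal totals.

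The library that stood apart reduced these differences. Without baseline replicate 2, B2m fell by 28.4% with PE, fell by 35.0% with THZ1 alone and fell by 38.3% with PE + THZ1 (deposited scaling). Among treated groups B2m differed less. Between PE + THZ1 and THZ1 alone the log2 change was -0.08 ± 0.08 (adjusted p = 0.56, interval of the fold 0.844 to 1.07), and -0.06 with equal totals. Between PE + THZ1 and PE it fell by 13.7% with the deposited scaling (log2 -0.21 ± 0.08, adjusted p = 0.029) but was at 0.04 ± 0.07 (adjusted p = 0.56) with equal totals. This call was lost without PE replicate 2 (log2 -0.21, adjusted p = 0.07), without PE replicate 3 (-0.20, adjusted p = 0.083), without PE + THZ1 replicate 1 (-0.16, adjusted p = 0.13) and without PE + THZ1 replicate 2 (-0.19, adjusted p = 0.093). It was kept with any other library left out. Baseline replicate 2 is in neither group but enters the shared estimate of the spread. Without it the change was -0.21 ± 0.05 (adjusted p = 0.00039, limma). With only the groups compared the adjusted p was 0.0013 (limma), and without PE + THZ1 replicate 3 the change was -0.28 (adjusted p = 0.0092). The B2m interaction, a log2 of 0.28 ± 0.11, missed the threshold with the deposited scaling (adjusted p = 0.068) and passed it with equal totals (0.39 ± 0.09, adjusted p = 0.0052) and without baseline replicate 2 (0.41, adjusted p = 7.9e-05).

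**Figure D2:**
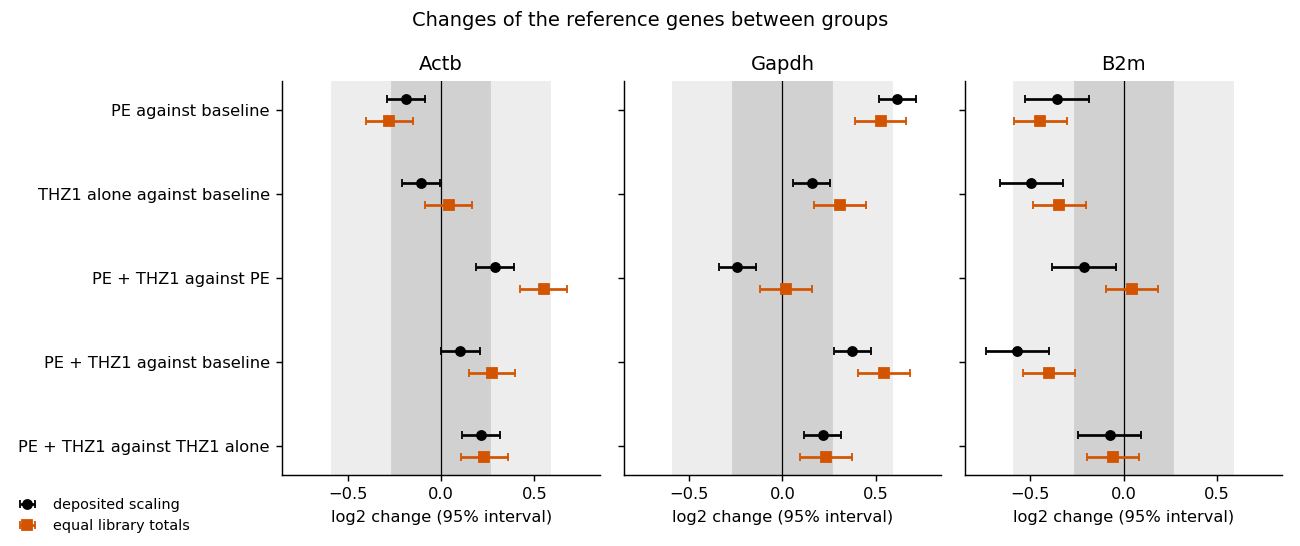
Log2 changes of Actb, Gapdh and B2m (x axis) in 5 comparisons between groups (y axis), with 95% intervals from limma, for the deposited scaling (black circles) and equal library totals (orange squares). Dark and light grey mark changes within 1.2-fold and 1.5-fold. For PE + THZ1 against PE the 2 scalings place Gapdh (-0.24 and 0.02) and B2m (-0.21 and 0.04) on opposite sides of 0.

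Equal totals moved every gene together, by the ratio of the group totals. The median log2 change of all genes went from 0.02 to -0.07 for PE against baseline, from 0.00 to 0.15 for THZ1 alone against baseline and from 0.01 to 0.26 for PE + THZ1 against PE. It went from 0.00 to 0.17 for PE + THZ1 against baseline, and for PE + THZ1 against THZ1 alone from -0.01 to 0.01. The share of called genes that were higher moved with it, from 54.5% to 37.4% for PE against baseline, from 49.7% to 72.5% for THZ1 alone against baseline and from 49.3% to 77.2% for PE + THZ1 against PE. It moved from 49.4% to 74.3% for PE + THZ1 against baseline, and from 43.2% to 73.2% for the interaction. The position of a gene relative to the median gene is therefore nearly the same under both scalings by construction. For PE + THZ1 against PE, Actb lay 0.29 above the median gene with either scaling. Gapdh lay below it (-0.25 with the deposited scaling, -0.24 with equal totals), as did B2m (-0.22 with each). For PE against baseline, the positions relative to the median gene were -0.21 for Actb, 0.60 for Gapdh and -0.37 for B2m with the deposited scaling, and for THZ1 alone against baseline they were -0.11, 0.16 and -0.50. These comparisons share the baseline and PE libraries.

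A p above the threshold does not show that a gene was steady, so the 95% interval of each change was set against fixed margins of 1.2-fold and 1.5-fold in either direction. With the deposited scaling, Actb stayed within 1.5-fold in 5 of 5 comparisons, Gapdh in 4, all but PE against baseline, and B2m in 3, all but THZ1 alone and PE + THZ1 against baseline. Of all genes tested, 44.2% stayed within 1.5-fold in all 5 comparisons. With equal totals 35.5% did, and none of the 3 genes was among them, with 4, 3 and 4 of 5 comparisons for Actb, Gapdh and B2m. Within 1.2-fold, none of the 3 genes held in all 5 comparisons under either scaling, whereas 5.83% of all genes did with the deposited scaling and 2.85% with equal totals. Actb held within 1.2-fold in THZ1 alone and PE + THZ1 against baseline, Gapdh in THZ1 alone against baseline and B2m in PE + THZ1 against THZ1 alone (deposited scaling).

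Over the 4 groups the highest mean of Actb (PE + THZ1) was 1.22 times its lowest (PE), and 24.3% of all genes had a smaller range. The range of Gapdh was 1.53-fold, from baseline to PE, larger than that of 62.7% of genes, and that of B2m 1.49-fold, from PE + THZ1 to baseline, larger than that of 59.8%. The median gene had a range of 1.40-fold. Among the 523 genes with a mean of 10000 or more, a range of abundance that holds all 3, the shares with a smaller range were 26.4% for Actb, 61.8% for Gapdh and 58.9% for B2m. With equal totals the ranges were 1.46-fold, 1.45-fold and 1.37-fold, larger than those of 49.6%, 48.2% and 37.9% of all genes, so that Actb had the widest range of the 3 and B2m the narrowest. Among the 523 abundant genes, the shares with a smaller range were then 57.9%, 55.8% and 45.9% in the same order. With equal totals the highest mean of Gapdh was that of PE + THZ1, and the lowest mean of B2m was that of PE. A test of any difference among the 4 groups passed for all 3 genes under both scalings, as for 80.4% of all genes with the deposited scaling and 83.7% with equal totals.

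**Figure D3:**
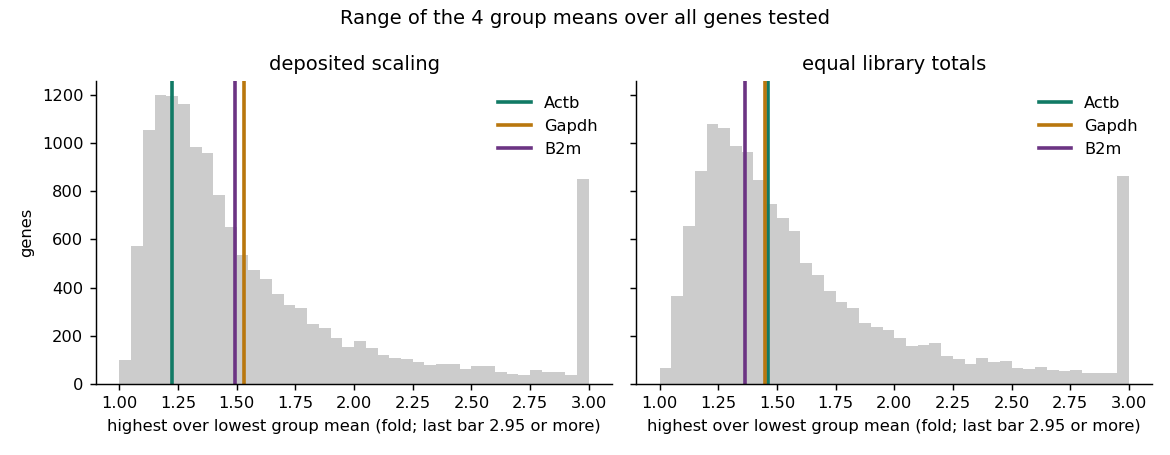
Number of genes (y axis) by the fold between the highest and lowest of the 4 group means (x axis, last bar 2.95-fold or more) for 14312 genes, with the deposited scaling (left) and equal library totals (right). Vertical lines mark Actb, Gapdh and B2m. Actb (1.22-fold) lies to the left of the median gene (1.40-fold) with the deposited scaling and beside it (1.46 against 1.47) with equal totals.

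The ratio of one reference gene to another within a library does not depend on how libraries are scaled. Gapdh/Actb had a mean log2 ratio of -1.87 at baseline, -1.07 with PE, -1.60 with THZ1 alone and -1.60 with PE + THZ1. Only its differences between groups can be read, since it also depends on the lengths of the 2 transcripts. The ratio was 1.74-fold higher with PE than at baseline, higher by a log2 of 0.27 with THZ1 alone than at baseline, and with PE + THZ1 0.692 times that with PE. The libraries of THZ1 alone and PE + THZ1 overlapped, and their mean log2 ratios differed by 0.0035.

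B2m/Actb was 0.25 at baseline, 0.08 with PE, -0.13 with THZ1 alone and -0.42 with PE + THZ1, on the log2 scale. The PE libraries overlapped the baseline libraries only through baseline replicate 2 (-0.05), and the log2 difference between these groups, -0.17, was -0.32 without that library, -0.12 without baseline replicate 1 and -0.071 without baseline replicate 3. B2m/Gapdh differed most between groups, with a mean log2 ratio of 2.12 at baseline, 1.15 with PE, 1.47 with THZ1 alone and 1.18 with PE + THZ1, so that with PE it was 0.510 times the baseline value. PE and PE + THZ1 overlapped for this ratio. Of 15 comparisons of a ratio between 2 groups, 12 were without overlap between libraries. The share for ratios of other genes was not computed, so this count does not set these 3 genes apart. Each of the 12 had p = 0.1 in a two-sided exact permutation test, the smallest p that 3 against 3 libraries allow (0.125 after Benjamini-Hochberg adjustment over the 15). The other 3 gave exact permutation p of 0.4, 0.8 and 1.

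**Figure D4:**
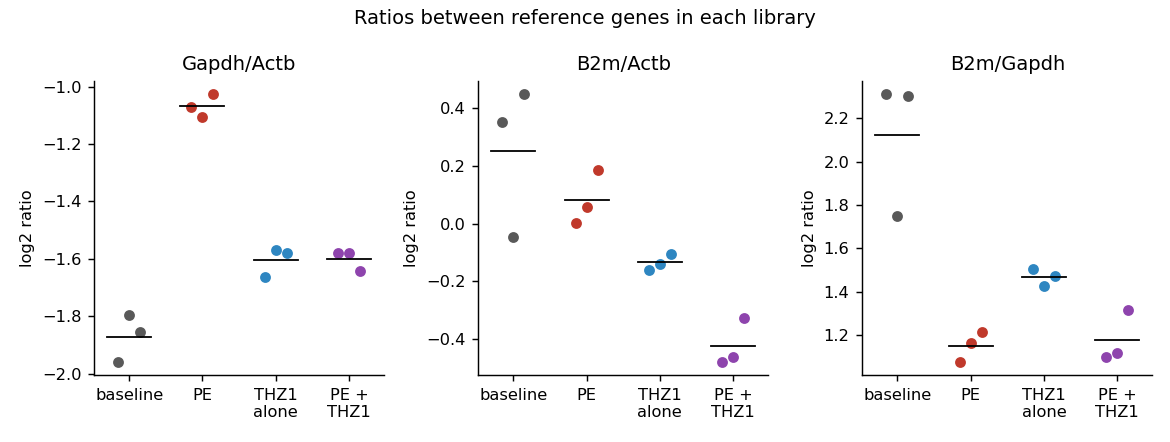
Log2 ratio of the normalized counts of 2 reference genes (y axis) in each of the 12 libraries, by group (x axis). Points are libraries 1 to 3 and lines are group means. Gapdh/Actb with PE (mean -1.07) lies above all other groups, and baseline replicate 2 lies below the other baseline libraries for B2m/Actb and B2m/Gapdh.

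To show what these differences would do to other genes, each library was divided by 1 reference gene in place of its size factor and all 14312 genes were fitted again. With Gapdh as the scale, the median log2 change of all genes with PE was -0.59, and 3.8% of 12337 called genes were higher with PE. With B2m it was 0.37, and 90.5% of 8851 called genes were higher. With Actb it was 0.20, and 80.1% of 8442 called genes were higher. The deposited scaling gave 54.5% of 7899. For THZ1 alone against baseline, the shares of called genes that were higher were 67.3% with Actb, 21.0% with Gapdh and 93.2% with B2m. For PE + THZ1 against PE they were 16.8%, 75.9% and 74.1%. The geometric mean of the 3 genes gave 49.7% for PE, 72.5% for THZ1 alone and 56.2% for PE + THZ1 against PE. The medians follow by construction from the changes of the 3 genes.

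**Figure D5:**
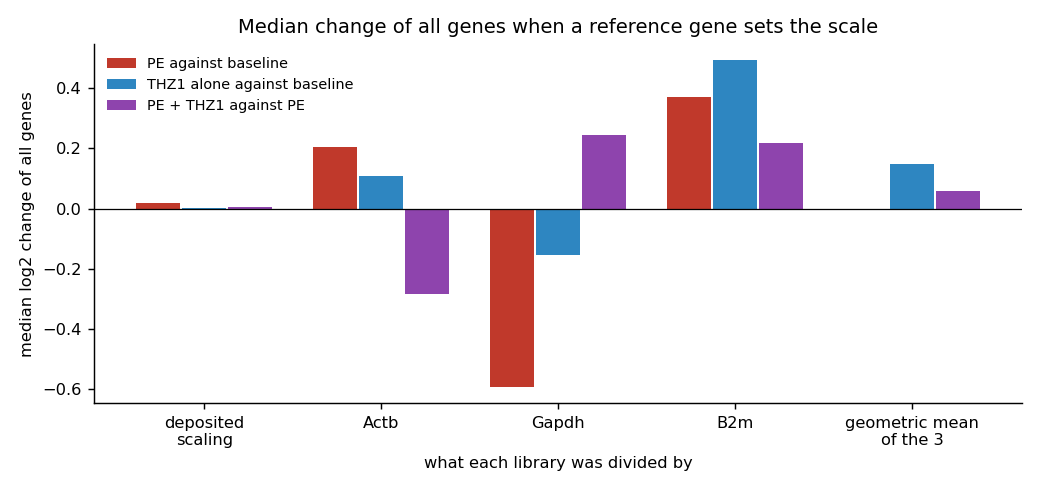
Median log2 change of all 14312 genes (y axis) in 3 comparisons (bar colours) when each library was divided by its size factor (deposited scaling), by Actb, by Gapdh, by B2m or by the geometric mean of the 3 (x axis). With PE the median runs from -0.59 with Gapdh to 0.37 with B2m.

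Among 11164 genes with a mean of 100 or more, the gene whose log2 levels followed Actb most closely over the 12 libraries was ENSRNOG00000004132 (Pearson r = 0.941 with the deposited scaling and 0.988 with equal totals). Its group means were 8021 at baseline, 6803 with PE, 7739 with THZ1 alone and 9062 with PE + THZ1. For Gapdh it was ENSRNOG00000016478 (r = 0.987), with means of 13036, 17883, 14019 and 16176 in the same order. For B2m it was ENSRNOG00000014753 (r = 0.980), with means of 2479, 1903, 1665 and 1488. The correlations are descriptions over 12 libraries that share their scaling and fall into 4 groups. With equal totals other genes came first for Gapdh and B2m.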

How the data were processed

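The 12 NRVM libraries were assigned to 4 groups by the sample titles. The deposited values are a signal, namely gene counts that the authors divided by a DESeq2 size factor per library. Per the labels and the study's methods, single-end reads of 40 bases from mRNA libraries were aligned to rn5 with TopHat2 2.1.1 and counted on genes with HTSeq by strand, and all rat samples were normalized together. Another column, the authors' cluster of each gene, was not used. Reads were recovered from the steps of the values, of which 100% were whole within 0.01 read.

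Genes with a mean of at least 10 (14312) were tested with limma 3.58.1 (R 4.3.3) on log2(value + 1), in a fit of all 12 libraries with a trend in the prior variance, two-sided tests, Benjamini-Hochberg adjustment over all of them and a threshold of 0.05. Values after ± beside a log2 change are standard errors and beside counts are SD. Intervals are 95%. Fold changes are on the log2(value + 1) scale. Alternatives were equal library totals (also without the 100 most abundant genes), TMM and quantile scaling, pseudocounts of 0.5 and 5, minimum means of 50 or none, edgeR 4.0.16 and DESeq2 1.42.0 on recovered reads, no trend, only the groups compared, the replicate number as a block, and each library left out. A block or the omission of baseline replicate 2 together with equal totals was added after seeing the data. The fit was also run on simulated counts in which few genes changed, and only with PE. In these data many genes differed between groups, so that run does not show how the fit performs here. Python 3.11.15 with numpy 2.4.6, pandas 2.3.3, scipy 1.17.1 and matplotlib 3.10.9 served for the rest.

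The 3 genes, the margins and the lists were chosen with earlier results of these data known. The rule for named genes was these 3, the genes most like them, and, from lists of reference, actin, glycolysis and antigen presentation genes, the largest changes. None (0) of the 47357 RefSeq entries used here carried an Ensembl identifier to match. The lists and the cell type markers could therefore not be applied, and at most 1 unnamed gene per reference gene is printed. Coordinates and promoter sequences are not given, since the annotation is of another build.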

Additional observations from a re-analysis of the deposited data

Results flagged for a closer look

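The effect of PE on 2 of the 3 genes differed between cultures without and with THZ1, by the test of the interaction in limma. For Actb the PE change with THZ1 exceeded that without it by a log2 of 0.40 (adjusted p = 0.00028). All 3 PE libraries were below baseline and all 3 PE + THZ1 libraries above THZ1 alone. For Gapdh the difference was -0.40 (adjusted p = 0.00022), with a rise in both settings that was smaller with THZ1. Of all genes tested, 32.2% passed this test.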

How the results depend on the processing

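Of 561 values of the 3 genes under alternatives, 526 kept their direction and their side of the threshold, 7 lost the threshold, 16 gained it and 12 changed sign. Part of the 526 was fixed in advance, so the count is not a measure of robustness. The test of any difference among the 4 groups has no sign to change. Leaving out a library of a group not compared leaves the log2 change as it was, and pseudocounts matter little at such high counts. Changes of sign came with scaling. Actb with THZ1 alone against baseline was 0.041 with equal totals and 0.044 with quantile scaling, and 0.11 with equal totals without baseline replicate 2. For PE + THZ1 against PE, Gapdh was 0.017 with equal totals (0.017 without baseline replicate 2) and 0.057 with quantile scaling, and B2m was 0.045 (0.045) and 0.17. With equal totals less the 100 most abundant genes these 2 were -0.092 and -0.065, no longer past the threshold. B2m without a variance trend was -0.21 (adjusted p = 0.083, limma). With TMM, Gapdh was -0.23 (adjusted p = 0.00047, limma) and B2m -0.20 (adjusted p = 0.041, limma) in that comparison. Both passed there, as with the deposited scaling. Actb for PE + THZ1 against baseline passed with equal totals (0.27, and 0.34 without baseline replicate 2), with equal totals less the most abundant genes (0.14) and with quantile scaling (0.26), and for THZ1 alone with DESeq2 (-0.11, adjusted p = 0.044). The B2m interaction passed with equal totals (0.39, and 0.47 without baseline replicate 2), with equal totals less the most abundant genes (0.38), with quantile scaling (0.49) and with DESeq2 (0.30). The cause was not tested.

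Leaving out each library in turn gave -0.15 to -0.087 for Actb with THZ1 alone, 0.063 to 0.13 for Actb with PE + THZ1 against baseline, -0.28 to -0.16 for B2m with PE + THZ1 against PE, 0.21 to 0.41 for the B2m interaction and 1.50 to 1.60 for the range of Gapdh (1.60 without baseline replicate 2). With equal totals the range was 1.46 for Actb and 1.45 for Gapdh, and the comparisons within 1.2-fold were 1 of 5 for Actb and 2 of 5 for B2m. The counts of genes called stayed within 1.5 times of those given, in each comparison and alternative run.

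Libraries of the same replicate number deviated together only weakly, which does not show that they were unpaired. Deviations from the group means correlated at a mean r of 0.033 over 18 pairs of the same number (-0.113 to 0.173, 4 over 0.1) and -0.017 over 36 others. With the replicate block, more genes were called in every comparison. There were 8071 in place of 7899 for PE against baseline and 4885 in place of 4603 for the interaction. The SE of the PE change fell from 0.0483 to 0.0463 for Actb and from 0.0470 to 0.0430 for Gapdh. For B2m it fell from 0.0805 to 0.0722. The B2m interaction of 0.28 passed with the block (adjusted p = 0.044, limma). Equal totals with the replicate block gave 0.041 for Actb with THZ1 alone, 0.27 for Actb with PE + THZ1 against baseline, 0.017 and 0.045 for Gapdh and B2m with PE + THZ1 against PE, and 0.39 for the B2m interaction. Counting error (at most 0.898%) does not limit these genes. The width of the intervals follows from the 3 libraries a group and from a spread that limma estimates over all 12 libraries and moderates over genes.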
